A study of Zea mays with 6 samples.

Results

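Photosystem II is the chloroplast complex that uses light to draw electrons from water. Its reaction centre is a pair of proteins, D1 and D2, flanked by the inner antenna proteins CP43 and CP47 and by many small subunits, and most of these core proteins are encoded in the plastid. The genes described here are psbA, which encodes D1, and the psbK-psbI-psbD-psbC cluster, which encodes the small subunits PsbK and PsbI, D2 and CP43. In cereals the cluster is known to be transcribed into overlapping multi-gene RNAs, whereas psbA has its own promoter. D1 is damaged by light and replaced throughout the life of a leaf, and psbA RNA is usually among the most abundant plastid messages in illuminated leaves.

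The genes were chosen by their plastid identifiers, ZemaCp002 and ZemaCp005 to ZemaCp008, 5 IDs at the start of the plastid gene numbering. Of these, 4 were analysed among 33953 features, 104 of them plastid: psbA (ZemaCp002), psbK (ZemaCp005), psbI (ZemaCp006) and psbC (ZemaCp008). The gene psbD (ZemaCp007) was not analysed here. RNA was sequenced from leaves of KN5585, a maize inbred line, in 3 control libraries and 3 libraries of transgenic plants that synthesise poly-γ-glutamic acid, a glutamate polymer. All seedlings had gone 5 days without water at the 3-leaf stage, until soil water had dropped to 9.8%, so that drought was shared by both genotypes and only the genotypes are compared. The sources used here do not state the promoter of the transgene, the number of transformation events or the plants behind each library, and p-values therefore measure the spread between these libraries, which may be technical.

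Levels are the authors' FPKM (fragments scaled by gene length and by mapped fragments), and any order of levels between genes is an order of FPKM. Whether FPKM measures short and long genes, or different plastid RNAs, equally well with the kit used was not tested. FPKM summed to between 1208094 and 1238707 per library, and steps between low values put the relative depth of the libraries between 0.961 and 1.03 of control replicate 1. Absolute depth is unknown. Of the leaf marker genes of the plastid, psaA, psaB, psbB and petA were above 0 in every library, atpB was listed at 0 in transgenic replicate 3, and rbcL was not analysed here. No nuclear ID had a symbol, so nuclear leaf markers could not be checked. The plastid part of a library's FPKM was 0.193% to 0.221% for controls and 0.496% to 0.570% for transgenic plants, all made with an mRNA kit. Whether the capture of plastid RNA by that kit differed between the genotypes was not tested.

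The 4 genes did not move as a block. In transgenic leaves psbA was 123-fold lower and psbC 3.36-fold lower. The gene psbK was 1.89-fold higher in FPKM as deposited but lower relative to the summed FPKM of the other plastid features. At 1.26 times its control mean, psbI did not pass the test. In whole leaves, fewer cells of a type and less RNA per cell cannot be told apart. The split was wide enough to reorder the genes, since psbA had the highest level of the 4 in every control library and the lowest in every transgenic library. Of the 4 genes tested, 1 rose and 2 fell at an adjusted p under 0.05 (limma on log2(FPKM + 1), Benjamini-Hochberg adjusted over 22200 features with a mean of at least 1 FPKM). That share is to be read against a background in which 73% of all tested features passed, 27% higher and 45.9% lower. Control and transgenic values were fully apart for psbA, psbK and psbC, 3 of the 4, and so they were for 75.3% of all tested features.

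**Figure D1:**
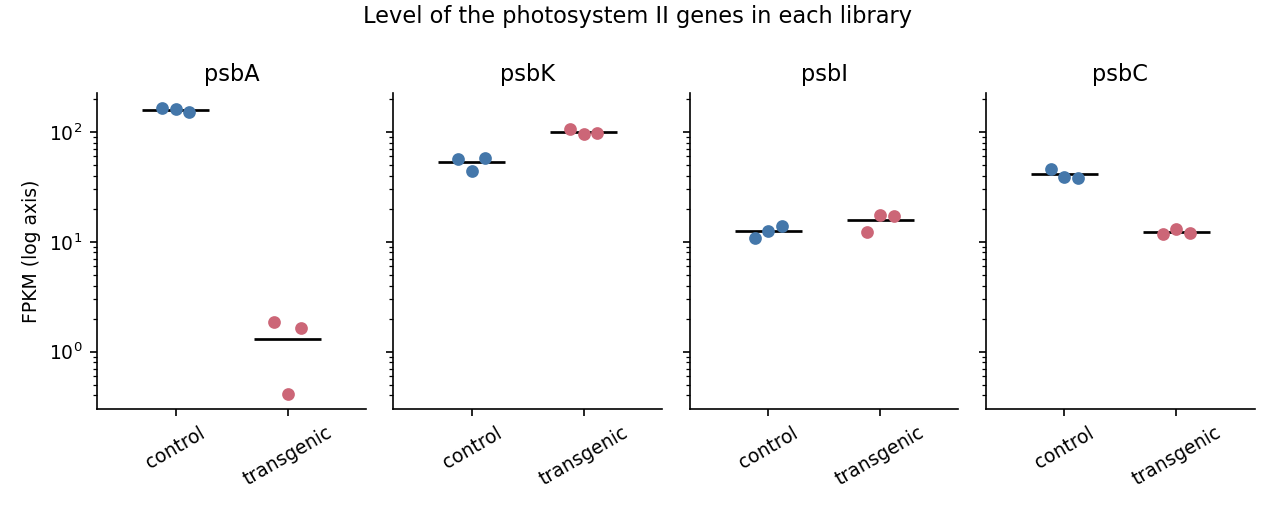
FPKM of each gene on a log axis, with 1 point per library (3 control, 3 transgenic) and a line at the mean of each genotype. The control points of psbA lie between 153.1 and 165.76 FPKM and its transgenic points between 0.41 and 1.85 FPKM, psbC is lower and psbK, as deposited, higher in transgenic libraries without overlap, and the ranges of psbI overlap.

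The reaction centre gene psbA had 165.76, 160.32 and 153.1 FPKM in control replicates 1, 2 and 3, and 1.85, 0.41 and 1.64 FPKM in transgenic replicates 1, 2 and 3. Every transgenic library lay far below every control library, and transgenic replicate 2 was the lowest of all. The means were 159.7 ± 6.35 and 1.30 ± 0.778 FPKM (SD, n = 3 per genotype). On log2(FPKM + 1) psbA fell by 6.19, with a 95% interval from -6.74 to -5.64 and an SE of 0.24 (limma, adjusted p = 3.89e-08), and this scale understates the change of a gene near 1 FPKM: with 0.1 added in place of 1 it fell by 7.06. It was the lowest change among 66 tested plastid features, in which copies with identical values were counted once, and rank 37 from the bottom of the 22200 features tested. The next plastid gene in that order, petD of the cytochrome b6f complex, fell by 2.06. Among 85 plastid features above 0 in at least 1 library, psbA ranked 5 by FPKM in each control library and 61, 71 and 62 in transgenic replicates 1, 2 and 3. Its share of plastid FPKM was 6.20% to 6.79% in controls but 0.00586% to 0.0268% in transgenic plants. The maize nuclear genome is known to carry inserted plastid DNA, and the sources used here do not say how reads with more than 1 possible origin were assigned.

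The antenna gene psbC, which encodes CP43, moved the same way as psbA by a smaller amount. It had 45.95, 39.3 and 37.87 FPKM in the control replicates and 11.68, 12.98 and 11.99 FPKM in the transgenic replicates. All transgenic values were below all control values, and the transgenic libraries were close to each other. The means were 41.0 ± 4.31 and 12.2 ± 0.679 FPKM, a fall of 1.67 on the log2(FPKM + 1) scale (SE 0.11, 95% interval -1.92 to -1.42; limma, adjusted p = 1.16e-06). It was rank 3 from the bottom of the tested plastid features. The start of psbC overlaps the end of psbD in the reference gene table, so part of the reads counted for psbC can come from psbD RNA.

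The small subunit gene psbK, at the upstream end of the cluster, moved in the opposite direction as deposited. It had 56.54, 44.52 and 57.97 FPKM in the control replicates and 106.89, 96.11 and 97.55 FPKM in the transgenic replicates. Its transgenic libraries were all higher, and control replicate 2 was the lowest of all 6. The means were 53.0 ± 7.39 and 100.2 ± 5.85 FPKM, a rise of 0.91 on the log2(FPKM + 1) scale (SE 0.11, 95% interval 0.67 to 1.16; limma, adjusted p = 6.12e-05). Measured against the summed FPKM of the other plastid features this direction turned, as given below. By rank psbK barely moved within the plastid, being 12 or 13 of 85 in control and 12 in each transgenic library.

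The other small subunit gene, psbI, lies next to psbK and had 10.81, 12.63 and 14 FPKM in the control replicates and 12.18, 17.7 and 17.22 FPKM in the transgenic replicates. Transgenic replicates 2 and 3 were above all control libraries, and transgenic replicate 1 lay within the control range. The means were 12.5 ± 1.60 and 15.7 ± 3.06 FPKM, and the difference of 0.30 on the log2(FPKM + 1) scale did not pass (SE 0.17, 95% interval -0.08 to 0.68; limma, adjusted p = 0.137). Without transgenic replicate 1 the difference was 0.46 and passed (limma, adjusted p = 0.0293, with adjusted p between 0.000435 and 0.363 over its alternatives). The values of this gene lay on coarse steps. In each library its FPKM was a whole multiple, within 0.1 of a fragment, of a step of 0.874 to 0.937 FPKM, and the smallest whole numbers that fit were 12, 14 and 16 fragments in control and 13, 19 and 19 in transgenic replicates 1 to 3. No such step could be resolved for psbA, psbK or psbC, but the search covered only steps of at least 0.1 FPKM, so a finer step would be missed. Fragment numbers of these 3 genes are therefore unknown, and psbA at 0.41 FPKM in transgenic replicate 2 may also rest on few fragments.

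The order of the levels therefore differed between the genotypes. In control leaves it ran psbA, psbK, psbC, psbI, with the ranges of psbK and psbC overlapping and the other neighbours in the order apart. In transgenic leaves it ran psbK, psbI, psbC, psbA, with the ranges of psbI and psbC overlapping and the others apart. Together the 4 genes made up 10.4% to 10.9% of plastid FPKM in controls but 1.82% to 2.09% in transgenic plants.

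Ratios between the genes within a library were compared between the genotypes to ask whether neighbours changed by different amounts, since a factor that scales all plastid RNA of a library leaves such a ratio nearly unchanged. The test was run with limma on log2 ratios of FPKM + 1 for 84 pairs of plastid features and for the 6 pairs among the 4 genes. The 84 pairs join features next to each other in ID order, among those above 0 in at least 1 library with copies counted once. The pairs psbK/psbI and psbI/psbC belong to both groups, which makes 88 pairs in all. Of these, 41, or 46.6%, passed. That number was 26 with 0.1 added to FPKM and without any 1 of transgenic replicates 1, 2 and 3. Of the 6 pairs among the 4 genes, 5 passed, all but psbK and psbI. With FPKM as deposited psbK was 3.53 to 5.23 times psbI in control and 5.43 to 8.78 times psbI in transgenic libraries, and the difference in log2 ratio of 0.62 (SE 0.29, 95% interval -0.07 to 1.30) did not pass (limma, adjusted p = 0.122). The interval leaves room for no difference and for one of more than 2-fold. Across the gap left by psbD, psbI was 0.235 to 0.370 times psbC in control and 1.04 to 1.44 times psbC in transgenic libraries, a shift of 1.96 (SE 0.27; limma, adjusted p = 0.00119). The ends of the cluster diverged the most within it, psbK being 1.13 to 1.53 times psbC in control and 7.40 to 9.15 times psbC in transgenic libraries. That shift in log2 ratio was 2.58 (SE 0.24; limma, adjusted p = 0.000215).

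The fall of psbA exceeded that of psbC. In control libraries psbA was 3.61 to 4.08 times psbC, and in transgenic libraries 0.0316 to 0.158 times psbC, a shift in log2 ratio of -4.53 (SE 0.35; limma, adjusted p = 8.15e-05). Against psbI the shift was -6.49 and against psbK -7.11, the latter the largest of all 88 pairs. The sign of each of these ratio shifts was the same in all alternatives run, and each of the 5 that passed did so in all of them.

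**Figure D2:**
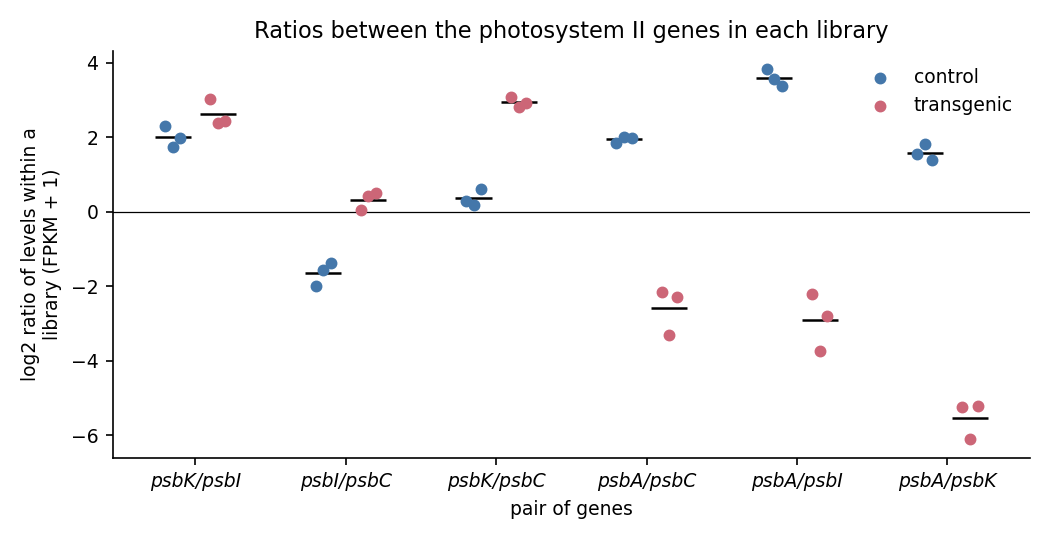
Log2 ratio of FPKM + 1 between the genes of each pair within a library, with 1 point per library and a line at the mean of each genotype. The ratios of psbK to psbI run from 1.74 to 2.285 in control and from 2.377 to 3.033 in transgenic libraries. That of psbA to psbK goes from a mean of 1.58 to -5.52.

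The genes that flank them in the numbering were also split. Between psbA and psbK lie matK, which encodes the plastid intron maturase, and rps16, a small ribosomal subunit protein gene, and psbZ, another small photosystem II subunit gene, follows psbC. The gene matK went from 2.50 ± 0.741 to 1.18 ± 0.227 FPKM, a fall of 0.67 (limma, adjusted p = 0.0249) that did not pass in 4 of 14 alternatives, with median-of-ratios scaling and without control replicate 1, transgenic replicate 1 or transgenic replicate 3. In the reference gene table it lies within trnK, whose reads may be counted for it. The gene rps16 fell by 1.17, from 27.4 ± 2.29 to 11.8 ± 3.14 FPKM (limma, adjusted p = 0.000407). By contrast psbZ had 5.28, 1.32 and 6.84 FPKM in the control and 18.3, 19.12 and 21.25 FPKM in the transgenic replicates, a rise of 2.08 (SE 0.39; limma, adjusted p = 0.00116). Its steps fitted 12, 3 and 16 fragments in control and 40, 42 and 48 in transgenic replicates 1 to 3. All transgenic values of psbZ were above all control values, but with the other plastid features set equal its difference of 0.75 did not pass (limma, adjusted p = 0.134, with adjusted p between 4.37e-05 and 0.134 over its alternatives).

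Each boundary was tested by its ratio. The ratio of psbA to matK shifted by -5.52 in log2 units (SE 0.39; limma, adjusted p = 7.27e-05), so psbA fell by more than its neighbour. That of rps16 to psbK shifted by -2.09 (SE 0.26; limma, adjusted p = 0.000829). That of psbC to psbZ shifted by -3.75 (SE 0.46; limma, adjusted p = 0.000822). Along the 7 genes from psbA to psbZ the direction thus ran lower for psbA, matK and rps16, higher for psbK, not past the test for psbI, lower for psbC and higher for psbZ, as deposited.

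**Figure D3:**
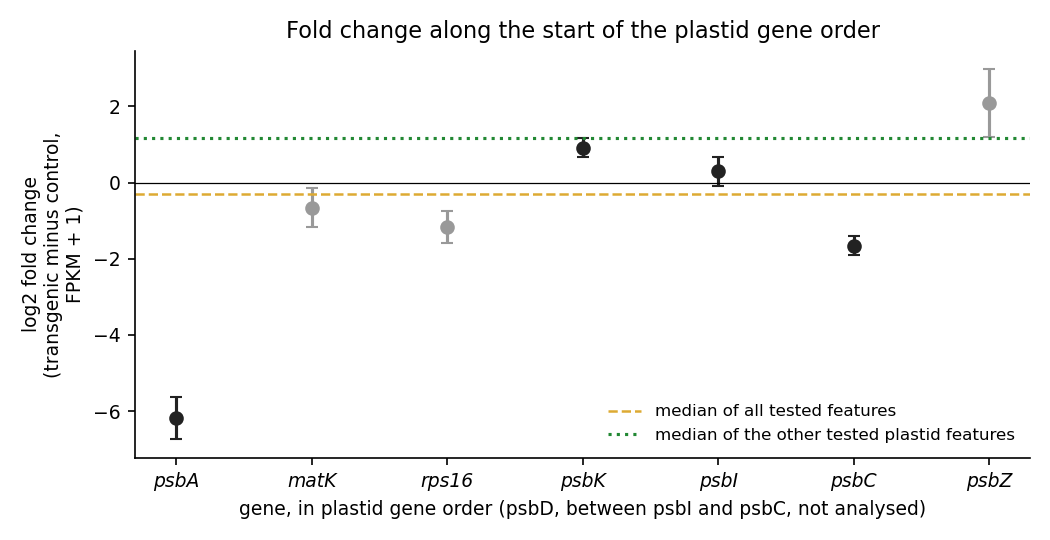
Log2 fold change (transgenic minus control, FPKM + 1) with its 95% interval for 7 genes in plastid order, black for psbA, psbK, psbI and psbC and grey for matK, rps16 and psbZ. The dashed line marks the median of all tested features at -0.31 and the dotted line that of the other tested plastid features at 1.16, so that psbK at 0.91 lies above 0 and above the first line but below the second.

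The reading of psbK and psbI depended on what they were measured against. The median of all tested features was -0.31 as deposited and 0.04 with median-of-ratios scaling. Relative to the median as deposited the changes were -5.88 for psbA, -1.36 for psbC, 1.22 for psbK and 0.61 for psbI. The plastid features other than these genes summed to 2105 to 2393 FPKM in controls but 6012 to 6874 FPKM in transgenic plants. When each library was scaled to the same sum of those features, all 4 genes were lower in transgenic leaves. Under this scaling 78.5% of all tested features were called lower and 8.59% higher, and their median was -1.63. On that scale psbA fell by 7.43, psbC by 3.15, psbI by 1.16 (limma, adjusted p = 0.000435) and psbK by 0.62 (limma, adjusted p = 0.00057). Thus psbK rose as a share of all FPKM and fell as a share of plastid FPKM. Of plastid FPKM psbK held 1.89% to 2.36% in controls but 1.37% to 1.59% in transgenic plants. The scaling and this share rest on sums that count each copy and in which genes of high FPKM weigh most. Among these, ndhC had a mean of 272.3 FPKM in control and 935.1 FPKM in transgenic leaves, and ndhK 313 and 848.1 FPKM. Relative to the median change of the other tested plastid features psbK was only at -0.25, and it was rank 31 from the bottom of 66. For psbI the difference passed upward with median-of-ratios scaling (0.66) and quantile normalization (0.56) and downward with the plastid scaling. The falls of psbA and psbC kept their direction under every scaling.

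**Figure D4:**
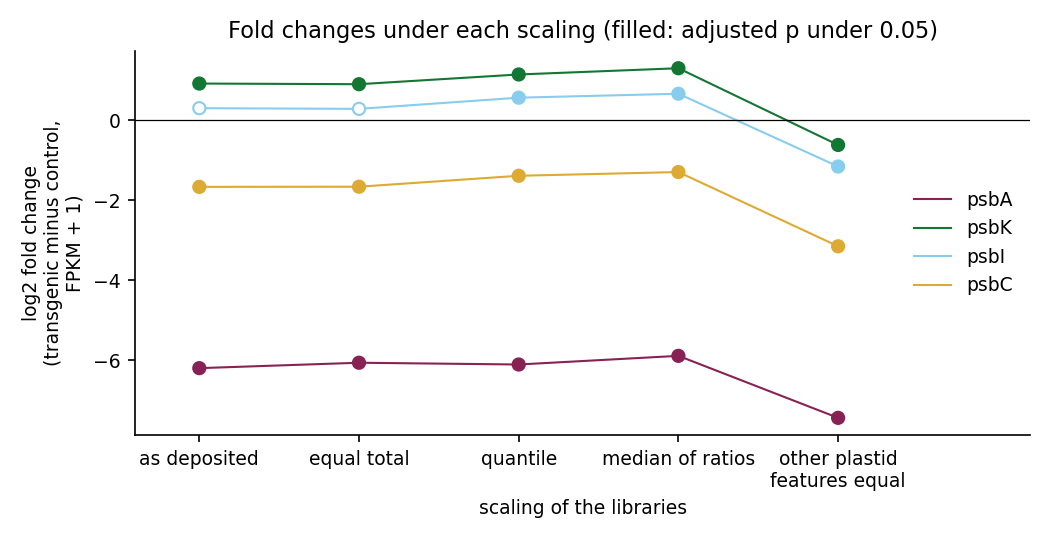
Log2 fold change of psbA, psbK, psbI and psbC under 5 scalings of the libraries, with filled points where the limma adjusted p was under 0.05 and lines joining the values of a gene. Values of psbA stay between -7.43 and -5.88 and those of psbC between -3.15 and -1.30. Those of psbK and psbI change sign when the summed FPKM of the other plastid features is set equal.

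The other 10 plastid genes of photosystem II were called in both directions as deposited. Calls were higher for 2, lower for 3 and absent for 5 of them, beside 27% higher and 45.9% lower among all tested features. Of the 62 tested plastid features other than psbA, psbK, psbI and psbC, 40 were higher and 9 lower. The median log2 fold change of the 10 genes was -0.24, beside -0.31 for all tested features and 1.16 for those 62. Of the 10, those that rose were psbZ and psbH, a small phosphoprotein gene, which went from 9.22 ± 2.10 to 17.0 ± 2.49 FPKM (0.83; limma, adjusted p = 0.00276) but was at -0.62 with the other plastid features set equal. Those that fell were psbB, psbE and psbF. The gene of the antenna protein CP47, psbB, went from 3.61 ± 0.724 to 1.65 ± 0.529 FPKM, a fall of 0.81 (limma, adjusted p = 0.0107) that did not pass with median-of-ratios scaling. The genes psbE and psbF encode the subunits of cytochrome b559. The first fell by 1.19, from 14.8 ± 6.33 to 5.64 ± 0.573 FPKM (limma, adjusted p = 0.0023). The second had 9.64, 26.57 and 4.68 FPKM in control and 1.67, 4.99 and 4.85 FPKM in transgenic replicates. These overlapped, and the call of psbF (-1.39; limma, adjusted p = 0.0443) was lost in 10 of 15 alternatives, among them each left-out library except control replicate 3.

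The small subunit genes psbJ, psbL, psbM, psbN and psbT did not pass, with differences of -0.21, -0.41, 0.38, -0.27 and 0.71 on the log2(FPKM + 1) scale. Of these psbM was the most abundant, at 60.2 ± 21.2 FPKM in control and 75.8 ± 4.09 FPKM in transgenic leaves, and psbT, listed at 0 in control replicate 2, the least. The difference of psbM passed upward with median-of-ratios scaling (0.76), quantile normalization (0.62) and without control replicate 1 (0.64), and downward with the other plastid features set equal (-1.15). The genes psbL and psbN each passed downward when 1 library was left out, psbL at -0.83 without transgenic replicate 2 and psbN at -0.60 without control replicate 1. With the other plastid features set equal, 0 of the 10 genes rose and 8 fell, beside 8.59% and 78.5% of all tested features. The median of the 10 genes, at -1.55, lay close to the -1.63 of all tested features. Among the 10, none came near the change of psbA: their values lay between -1.39 and 2.08.

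**Figure D5:**
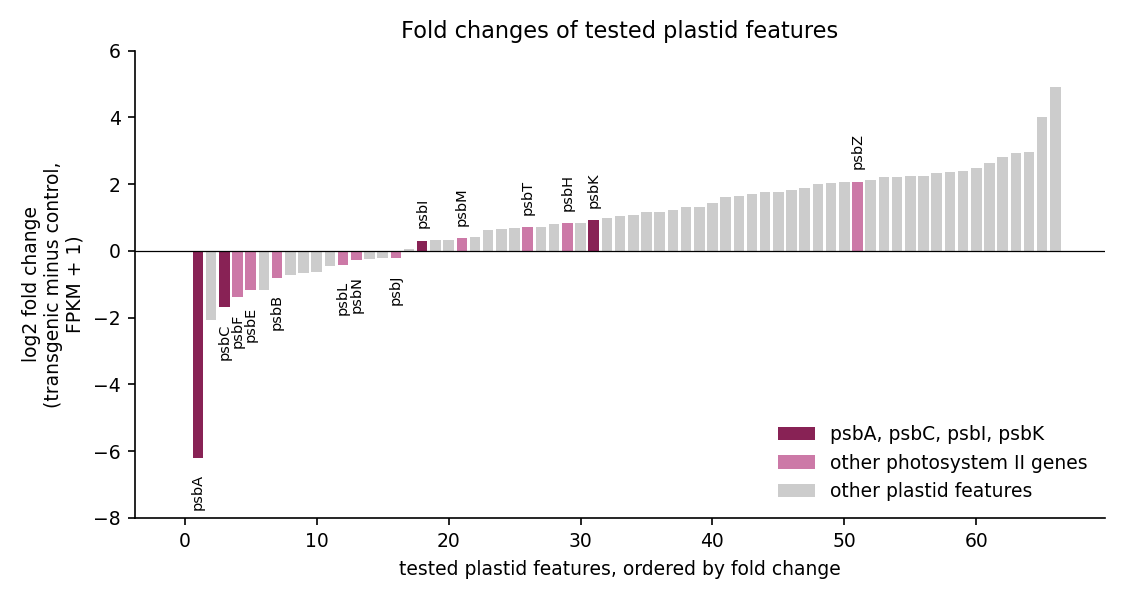
Log2 fold change (transgenic minus control, FPKM + 1) of 66 tested plastid features in order of size, as bars from 0, with psbA, psbC, psbI and psbK in dark and the other 10 photosystem II genes in light purple. The bar of psbA at -6.19 stands apart from the next one, petD at -2.06, psbC is the third, and psbZ at 2.08 is the highest of the photosystem II genes.

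Genes with the most similar profiles were taken from 80 named plastid and mitochondrial features by the Euclidean distance, over the 6 libraries, between log2(FPKM + 1) values centred on each gene's mean. For psbA no close match was found. The nearest were the mitochondrial genes cox1, which encodes part of the terminal oxidase of respiration, at a distance of 3.20 and atp6, a subunit of the mitochondrial ATP synthase, at 3.59, whose falls were 3.63 and 3.37. For psbC the nearest were atp1-a1 at 0.355, which has a second copy with the same values, and nad9 at 0.50, also mitochondrial and both below 5 FPKM in every library. This match rested on the 1 added to FPKM: with 0.1 added, a setting chosen after the values were seen, psbC was nearest to the plastid genes petD, at 0.81, and rps16, at 0.858, and atp1-a1 fell by 3.22 and nad9 by 2.41 where psbC fell by 1.74. For psbA, cox1 stayed the nearest with 0.1 added, and atp6 ranked 5. The profile of psbK was nearest to ndhJ of the plastid NDH complex, at 0.355, and to plastid rps7, at 0.498. That of psbI was nearest to psbJ, at 0.733, and to ndhJ, at 0.739, and psbJ differed by -0.21 where psbI differed by 0.30, so that the likeness for psbI was loose.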

How the data were processed

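The deposited files hold, per the file headers, FPKM values calculated by the authors for 1 library each, rounded to 2 decimals. Per the labels' protocols, a SMARTER mRNA kit was used on 1.3 µg of total RNA. The sources used here name no aligner, counting method or strand setting, and the builds in the submitters' processing notes are mouse builds, so no coordinates are given. Symbols, gene order and overlaps come from the reference gene table of Zm-B73-REFERENCE-NAM-5.0, matched by locus tag. Features with a mean of at least 1 FPKM were compared between genotypes with limma 3.58.1 in R 4.3.3 (log2(FPKM + 1), eBayes with trend, two-sided, Benjamini-Hochberg, threshold 0.05). Ratios were fitted with limma without trend and adjusted over all pairs, and scripts were tested on simulated data. The planned pairs with psbD could not be run. The genes, lists and the rule for named genes (the chosen genes, their neighbours by ID, the other plastid photosystem II genes and the 2 nearest profiles) were set with earlier results of these data known. The search for steps in low values was added after the values were seen. Deviations of libraries with the same replicate number had a Pearson r of 0.00588, -0.000753 and 0.0152, so no pairing was assumed.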

Additional observations from a re-analysis of the deposited data

How the results depend on the processing

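Of 60 values of psbA, psbK, psbI and psbC under alternatives, 55 kept their direction and their side of the threshold, as did all 99 values of ratios that involve one of them. The exceptions were psbK and psbI. With the other plastid features set to the same sum, psbK was at -0.62 and psbI at -1.16, and of the other photosystem II genes psbH was at -0.62 and psbM at -1.15, since the plastid share of FPKM was higher in transgenic libraries. Under that scaling 0 of the other 10 photosystem II genes were higher and 8 lower, with a median of -1.55 beside -1.63 over all tested features, of which 78.5% were lower. The difference of psbI passed with median-of-ratios scaling (0.66) and quantile normalization (0.56), and lay between 0.21 and 0.46 when 1 library was left out. With median-of-ratios scaling 1 of the other photosystem II genes was lower and 3 were higher, beside 34% and 36.1% of all tested features. Counts over all features were 5996 higher and 10199 lower as deposited, but 1974 higher and 18042 lower with the other plastid features set to the same sum. In the other alternatives both counts kept within 1.5 times, with 7986 and 7533 under median-of-ratios scaling and 7185 and 8563 with quantile normalization. Of 88 pairs, 41 passed, 26 with 0.1 added to FPKM and 26 to 41 with 1 library left out, with 26 without any 1 of the transgenic replicates. With the replicate number as a block, 5935 features were higher and 10087 lower and 32 pairs passed, and no call of psbA, psbK, psbI or psbC changed. Beyond the effect of each scaling itself, the cause of these changes was not tested. The absolute depth is unknown, and the smallest whole numbers of fragments that fit psbI were 12 to 19 per library.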
